A study of Homo sapiens with 9 samples.

Results

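The regions described here are the peaks of the histone demethylase LSD1 that overlapped an LSD1 peak listed after 30 min of progestin in breast cancer cells. A site was called kept when its LSD1 peak at 0 min overlapped an LSD1 peak at 30 min by at least 1 bp, and 1299 of the 34990 peaks at 0 min met this rule, which is 3.71%. Members were thus chosen by the positions of the peaks called in both LSD1 libraries, so their overlap and LSD1 scores are given as a description. The other 33691 peaks of the 0 min list are called not kept. The 30 min list held 20495 peaks, of which 1308 matched a kept site.

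The cells were T47D-MTVL, a derivative of the progesterone receptor-positive luminal breast cancer line T47D with an integrated mouse mammary tumour virus promoter driving luciferase. The treated cells had received 10 nM R5020, a synthetic progestin, for 30 min (or 60 min for histone H2A), and the 0 min cells none. All had first been held in charcoal-stripped serum and then without serum, so both groups were deprived of steroids before the hormone. The series held 9 chromatin immunoprecipitation sequencing libraries with antibodies to 4 proteins, 1 library for each antibody and time: LSD1, HP1γ and the chromatin remodelling subunit BPTF at 30 and 0 min, and H2A at 0, 30 and 60 min. With 1 library per antibody and time there was no replicate check, and every difference below compares libraries. The depth of the libraries is unknown from the peak lists, and because such lists hold no transcript levels the identity of the line was taken from its label.

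LSD1 (KDM1A) removes methyl groups from histone H3, mostly as part of the CoREST complex with histone deacetylases. HP1γ (CBX3) binds methylated lysine 9 of histone H3 and is found in heterochromatin and along gene bodies. In T47D cells a repressive complex that holds LSD1 and HP1γ is known to sit on a group of progestin-responsive genes before hormone and to be displaced when the hormone-bound progesterone receptor arrives.

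For 3 kept sites, taken for a high LSD1 score, for HP1γ at both times and for BPTF, the sequence is shown first, as the central 300 bases of the 0 min peak on the + strand of GRCh37. Capitals mark the hexamer AGAACA or its reverse complement TGTTCT, the core word bound by the progesterone receptor and related steroid receptors. The window at chr3:169306332-169306631, in an intron of MECOM, is from a kept site whose 0 min score was among the highest. The window at chr1:148889036-148889335, nearest to NBPF16, is from a site that overlapped HP1γ peaks at both times, and in it 100% of the 31-base words occur more than once in the genome. The window at chr3:169672080-169672379, nearest to SEC62, is from a site that overlapped a BPTF peak recruited by hormone.
MECOM intron: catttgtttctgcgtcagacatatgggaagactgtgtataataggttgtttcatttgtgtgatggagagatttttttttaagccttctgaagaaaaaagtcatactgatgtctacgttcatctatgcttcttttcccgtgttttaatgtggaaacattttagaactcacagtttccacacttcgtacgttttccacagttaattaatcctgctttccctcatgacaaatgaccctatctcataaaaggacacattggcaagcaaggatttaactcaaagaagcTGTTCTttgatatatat
NBPF16 side: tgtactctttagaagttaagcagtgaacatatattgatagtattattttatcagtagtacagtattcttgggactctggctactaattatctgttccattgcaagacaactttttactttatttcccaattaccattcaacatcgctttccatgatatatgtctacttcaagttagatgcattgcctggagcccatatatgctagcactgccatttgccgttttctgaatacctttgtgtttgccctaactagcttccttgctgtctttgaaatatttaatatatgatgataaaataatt
SEC62 side: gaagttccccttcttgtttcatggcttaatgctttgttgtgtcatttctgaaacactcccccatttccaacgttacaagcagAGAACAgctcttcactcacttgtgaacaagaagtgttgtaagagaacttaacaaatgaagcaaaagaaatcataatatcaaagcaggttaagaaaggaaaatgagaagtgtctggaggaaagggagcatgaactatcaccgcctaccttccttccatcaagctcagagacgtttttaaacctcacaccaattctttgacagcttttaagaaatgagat
The MECOM and SEC62 windows each hold 1 copy of the hexamer, and the NBPF16 window holds 0. All 300 bases of the MECOM and NBPF16 windows also lay inside the 30 min peak, against 85 bases of the SEC62 window.

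Most kept sites were a 1-to-1 pair of partly overlapping peaks, not the same interval listed again. Of the 1299 sites, 1274 matched 1 peak at 30 min, 24 matched 2 and 1 matched 3, and 17 peaks at 30 min spanned 2 kept sites. Taking the best match of each site, the shared stretch had a median of 327 bp (quartiles 180 and 419.5 bp, range 2 to 1027 bp). It covered a median of 68.6% of the 30 min peak and 47.3% of the 0 min peak, whose median widths were 448 bp at 30 min and 610 bp at 0 min. The centres of the paired peaks were a median of 217 bp apart, and 316 sites (24.3%) had centres within 100 bp. The 30 min peak lay wholly inside the 0 min peak at 278 sites, and the 0 min peak lay wholly inside the 30 min peak at 40.

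The rule divides a continuous range. An overlap under 50 bp was found at 75 kept sites, and at least 500 bp at 135. Among the 5 sites just inside were chr3:162303263-162303659, with an overlap of 2 bp and scores of 36.54 at 30 min and 34.07 at 0 min, and an intronic site in TNIK, a kinase of the Wnt pathway, with 4 bp and scores of 30.99 at 30 min and 50.53 at 0 min. Also at 2 bp was an intronic site in SPATA17 at chr1:217942423-217942968, with scores of 43 at 30 min and 38.41 at 0 min. Just outside, the peak at chr1:172900635-172901344 abutted a 30 min peak with 0 bases between them and had scores of 53.02 at 30 min and 50.68 at 0 min. A further peak near MAP3K13 at chr3:185167318-185167996 missed by 3 bases, with scores of 81.14 at 30 min and 49.01 at 0 min. In all, 174 not-kept peaks lay under 100 bases from a 30 min peak and 1391 lay under 1000 bases. The 0 min scores of the peaks named here on either side of the rule thus overlapped. The scores of all peaks near the rule were not summarised.

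The number of 30 min LSD1 centres rose towards the centre of 0 min peaks. Counted over all 0 min peaks, 314 pairs of centres were under 100 bp apart, against a mean of 138 pairs for each 100 bp at 2 to 5 kb, a ratio of 2.27. Within 500 bp there were 1222 pairs, against a mean of 691 for each 500 bp at 2 to 5 kb, a ratio of 1.77. A large part of the close pairs is thus at the level of the local density of 30 min peaks. A kept site is therefore an overlap of 2 listed peaks, and need not be 1 site bound at both times. On chromosome 3 the ratio under 100 bp was 2.48, and on the other chromosomes together it was 2.17. HP1γ centres gave a ratio of 2.37 at 30 min and 3.07 at 0 min around the same LSD1 peaks. LSD1 peaks at 30 min were thus gathered around 0 min LSD1 peaks by about as much as HP1γ peaks at 30 min, and less than HP1γ peaks at 0 min. A ratio above 1 at short distance was present for every list and for both chromosome groups, and its causes were not tested.

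**Figure D1:**
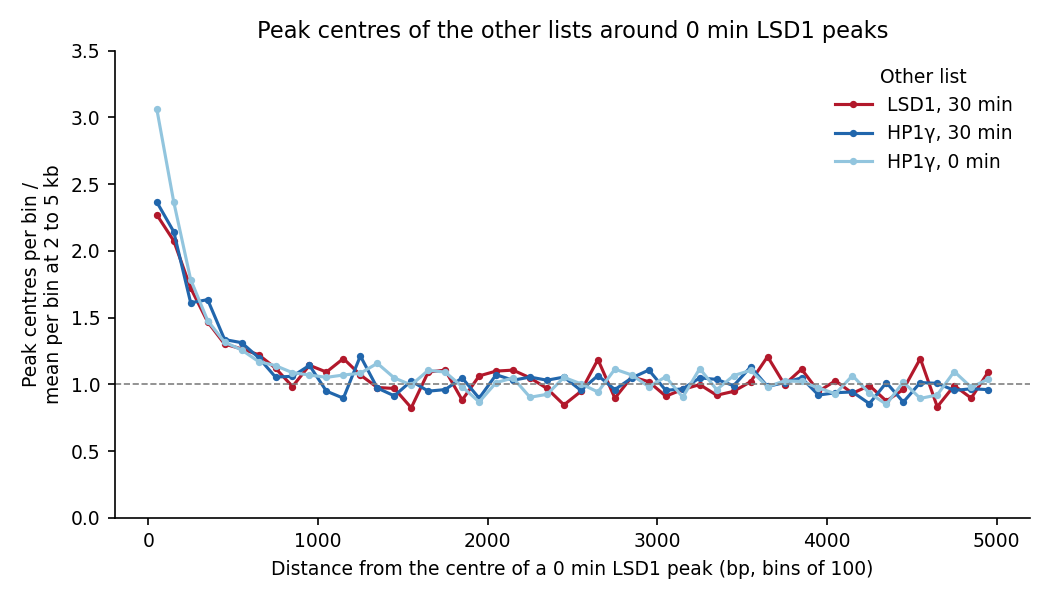
Peak centres of the 30 min LSD1 list and of the HP1γ lists at 30 and 0 min, by distance in bp from the centre of a 0 min LSD1 peak (bins of 100 bp), divided by the mean per bin at 2 to 5 kb; the dashed line marks 1. All 3 lines are highest in the first bin, at 2.27 for LSD1, 2.37 for HP1γ at 30 min and 3.07 for HP1γ at 0 min, and are near 1 from about 1000 bp outward.

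The score deposited with each peak is the authors' own, and its definition is not given in the sources used here, so it serves to order peaks within a list. Its lowest value was 30 in both lists. The matching 30 min peaks had a median score of 37.56 (range 30 to 99.42), and the 0 min peaks of the kept sites a median of 40.66 (range 30.01 to 130.51). Peaks not kept had a median 0 min score of 36.15. Across the kept sites the scores at the 2 times were almost unrelated: Pearson's r was 0.0926 and Spearman's rho 0.0934 over 1299 sites, which share libraries and lie partly in the same regions. A score of at least 60 in both lists was found at 11 sites.

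Of the 10 kept sites with the highest 0 min scores, 6 lay on chromosome 3, which held 38.6% of all kept sites. Of these 6, 5 were on its long arm. A site 25.3 kb from LMLN, the gene for a leishmanolysin-like peptidase, scored 60.76 at 30 min and 130.51 at 0 min. The intronic site in MECOM, which encodes the zinc-finger transcription factor EVI1, scored 33.25 at 30 min and 127.84 at 0 min. A site at chr3:182309643-182310821, 201 kb from the flippase gene ATP11B, scored 31.49 at 30 min and 120.36 at 0 min. An intron of NLGN1, which encodes a synaptic adhesion protein, held a site at chr3:173310569-173311708 with 31.61 at 30 min and 119.88 at 0 min. At 30 min 3 of these 4 sites were thus below the median of the kept sites, while all 4 were at their top at 0 min. A site nearest to SMCO1 scored 37.21 at 30 min and 116.07 at 0 min, and the NBPF16-side site 49.59 at 30 min and 114.36 at 0 min. The remaining sites of the first 10 were chr5:164241830-164242597 (32.78 at 30 min, 114.79 at 0 min), the CADM2 side at chr3:84943436-84944285 (45.27 at 30 min, 114.28 at 0 min), the POTEB3 side at chr15:21946180-21947513 (36.6 at 30 min, 112.35 at 0 min) and the CDH26 side at chr20:58984041-58985360 (86.66 at 30 min, 108.86 at 0 min).

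Ordered by the 30 min score, the leading sites were largely different ones. A site nearest to KCNMB2, the gene for a potassium channel subunit, scored 99.42 at 30 min and 31.38 at 0 min. An intron of the receptor gene NOTCH2 held a site at chr1:120639215-120640099 that scored 95.78 at 30 min and 36.04 at 0 min, and 82.6% of the 31-base words in its central window recur in the genome. Sites at chr3:192689134-192690637, nearest to MB21D2, and chr3:169725991-169726944, nearest to SEC62, scored 94.28 and 92.42 at 30 min, against 57.33 and 51.05 at 0 min. An intron of PIK3CA, the catalytic subunit of phosphoinositide 3-kinase, held a site at chr3:178944996-178945764 with 89.06 at 30 min and 64.05 at 0 min. An exon of TDG, a DNA glycosylase that acts in active demethylation, held a site at chr12:104381151-104381832 with 87.2 at 30 min and 53.52 at 0 min. The GOLIM4 intron site at chr3:167810245-167810750 scored 90.67 at 30 min and 32.93 at 0 min, and its 2 peaks shared 5 bp. Sites nearest to UBE2V2 (chr8:49157570-49158147) and NBPF15 (chr1:148518405-148519429) scored 90.77 and 86.55 at 30 min, against 44.77 and 49.49 at 0 min. The CDH26-side site, 376 kb from that gene, was in the first 10 at both times. In its central window 100% of the 31-base words recur in the genome. That share was 88.5% at the NBPF15-side site, 84.8% at the TDG site and 49.6% at the UBE2V2-side site. Apart from these and the NOTCH2 site, it was at most 32.2% among the first 10 at 30 min. At the POTEB3-side site, among the first 10 at 0 min, it was 88.5%.

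**Figure D2:**
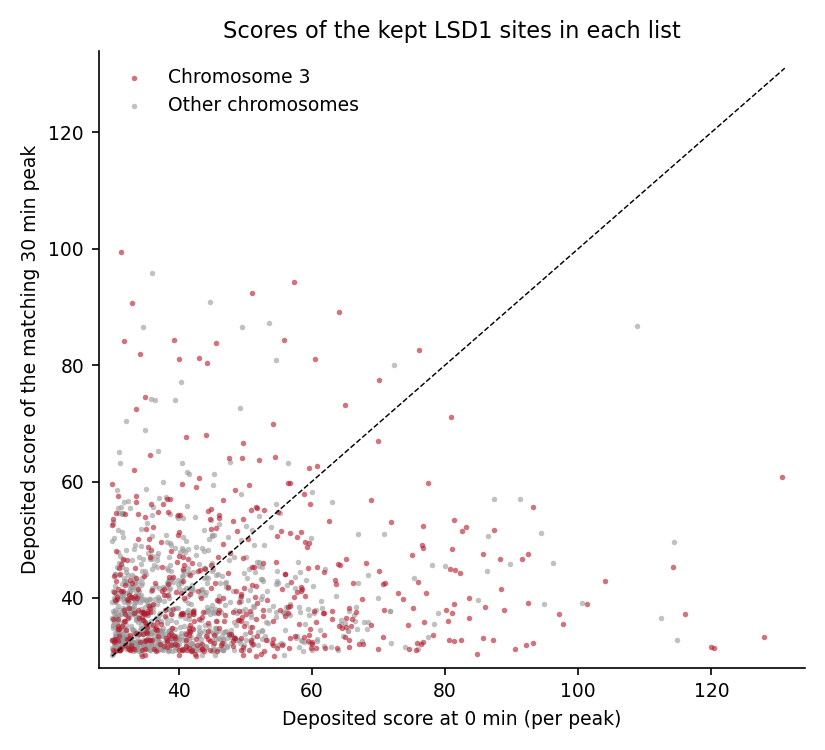
Each point is 1 of the 1299 kept sites, with its deposited score at 0 min on the x axis and that of its best-matching 30 min peak on the y axis; red points are on chromosome 3, grey points on other chromosomes, and the dashed line marks equal scores. The cloud shows little relation (Spearman's rho 0.0934), and the 5 points with the highest 0 min scores, up to 130.51, are red.

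The share of 0 min peaks that were kept was higher for peaks with high scores, for wide peaks and where 30 min peaks were dense. That density was counted from the same 30 min list that the rule used. With the 0 min peaks divided into 10 classes by score, the kept share was between 2.32% and 2.47% in the lowest 4 and reached 7.56% in the highest (264 of 3492; 95% Wilson interval 6.73 to 8.48%, which like all intervals here covers the counting of peaks only). With 10 classes of width it was 8.53% in the widest (298 of 3495) and 1.87% in the narrowest. Kept peaks had a median 0 min width of 610 bp, against 535 bp for peaks not kept. By the number of 30 min LSD1 peaks within 500 kb, leaving out the nearest 5 kb, the kept share was 1.26% where there were 0 to 8 such peaks, 2.78% with 9 to 13, 3.08% with 14 to 17, 3.43% with 18 to 22 and 8.55% with 23 to 91 (561 of 6562, 7.90 to 9.25%). A wider peak and a denser 30 min list both give more bases that can overlap, and the part of score apart from these was not tested.

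**Figure D3:**
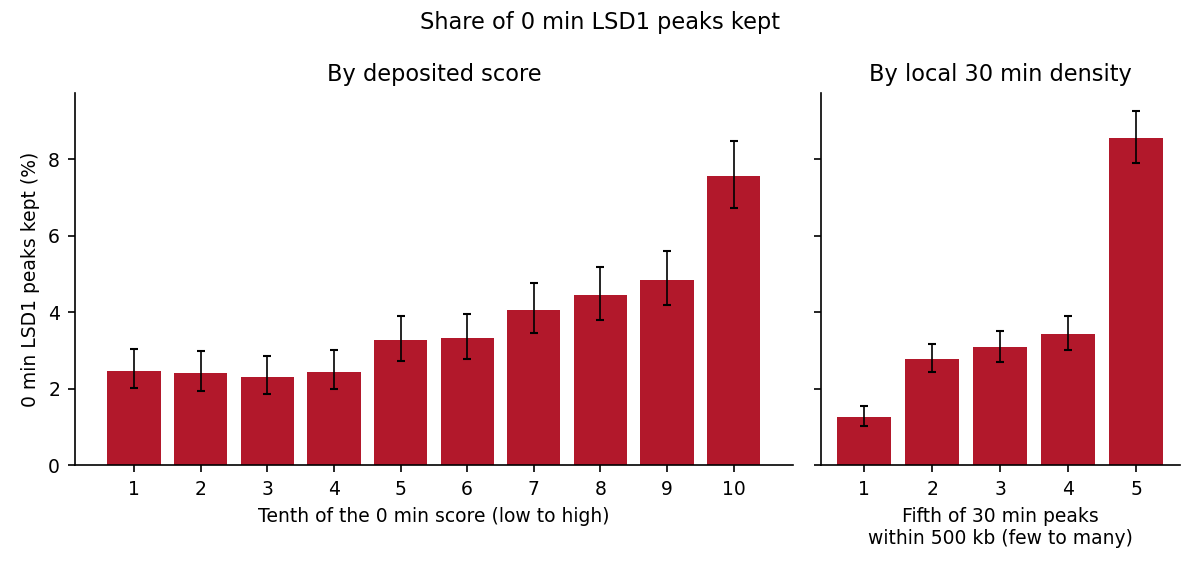
Share of 0 min LSD1 peaks kept (%, bars, with 95% Wilson intervals), by 10 classes of the 0 min score on the left and 5 classes of the number of 30 min LSD1 peaks within 500 kb on the right. The highest score class reaches 7.56% and the densest group of regions 8.55%, above the 3.71% of all 0 min peaks.

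Kept sites were concentrated on chromosome 3, and there on the long arm. Chromosome 3 held 502 kept sites, 38.6% of them, against 16.6% of peaks not kept. There, 8.26% of 0 min peaks were kept (502 of 6079; 7.59 to 8.98%), against 2.76% on the other chromosomes together (797 of 28911). Chromosome 3 also had the most LSD1 peaks for its length, 15.4 per Mb at 30 min and 30.7 per Mb at 0 min. Before the largest gap of its assembly, at the centromere, 31 of 875 peaks were kept (3.54%), and after it 471 of 5204 (9.05%). Chromosome 12, the next densest at 12.6 per Mb at 30 min, kept 103 of 3650 peaks (2.82%), and chromosome 1 kept 126 of 3408 (3.70%). Chromosomes 14 and 13 kept 6 of 833 (0.720%) and 2 of 441 (0.454%). Chromosome 18 kept 0 of 74, which allows a share of up to 4.05% by a limit of 3 counts (4.93% by the Wilson interval, as plotted). Over the 23 chromosomes, Spearman's rho between the kept share and the 30 min peaks per Mb was 0.681, and 0.635 without chromosome 3, as a description of points that share 2 libraries. Copy number was not measured in these files, and its part in the density of peaks was not tested.

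**Figure D4:**
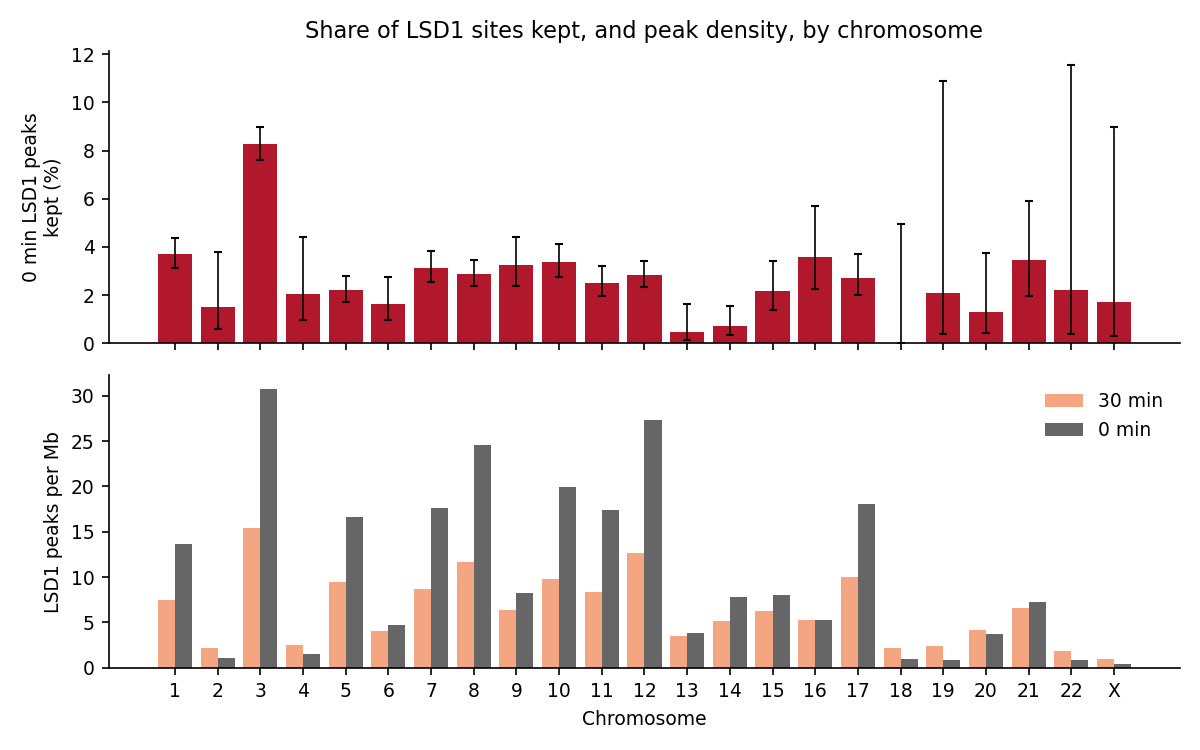
Top, the share of 0 min LSD1 peaks kept on each chromosome (%, bars, with 95% Wilson intervals); bottom, LSD1 peaks per Mb at 30 min (orange) and 0 min (grey). Chromosome 3 stands highest in both, with 8.26% kept and 15.4 peaks per Mb at 30 min against 30.7 at 0 min.

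Of 574 windows of 5 Mb that held a 0 min peak, 240 held a kept site, and the 10 windows with most held 457 kept sites, or 35.2%. The first 3 were all on the long arm of chromosome 3. The window at 170000001 to 175000000, which holds much of NAALADL2 and NLGN1, kept 98 of 571 peaks (17.2%), and its 323 peaks at 30 min covered 3.52% of its bases. The window at 175000001 to 180000000, with PIK3CA, kept 77 of 525 (14.7%), and that at 190000001 to 195000000, with FGF12, kept 74 of 481 (15.4%). Outside chromosome 3, the window with most kept sites was chromosome 11 from 125000001 to 130000000, with 18 of 257. The highest share among windows with at least 20 peaks was on chromosome 1 from 140000001 to 145000000, with 9 of 26 (34.6%), chosen after its value was seen. The next window along chromosome 1, at 145000001 to 150000000, with NBPF and PDE4DIP genes, kept 14 of 113 (12.4%). The median distance from a kept site to the next was 119 kb, 608 kept sites (46.8%) had another within 100 kb, and 173 (13.3%) within 10 kb.

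Within genes, kept sites were placed much as the other LSD1 peaks were. Introns of protein-coding genes held 599 kept sites (46.1%), against 44.1% of all 0 min peaks, and 631 (48.6%) were intergenic, against 50.6% of peaks not kept. A centre inside a protein-coding gene was found for 662 kept sites (51.0%, 48.2 to 53.7%), against 48.9% of all 0 min peaks. Within 1 kb of a coding gene's start lay 35 kept sites (2.69%, 1.94 to 3.72%), against 2.66% of all 0 min peaks. Both intervals hold the share of all peaks, so a difference in placement was not detectable over all chromosomes. On chromosome 3 alone the centre lay in a gene for 54.2% of kept sites (49.8 to 58.5%), against 49.7% of peaks not kept, a share just below that interval, and on the others for 48.9% against 48.7%.

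A kept site in the gene or within 5 kb was found for 499 of 20098 protein-coding genes, which is 2.48%. Of these genes, 396 had 1 kept site, 55 had 2 and 48 had 3 or more. They were long: their median length was 119 kb, against 63.3 kb for genes with 0 min peaks of which none was kept and 27.3 kb for all coding genes. Because 1 kept site was enough, a gene with more 0 min peaks could qualify more easily, and the number of peaks was not matched. The NAALADL2 gene, at chr3:174156363-175528336, had the most, with 37 of its 190 LSD1 peaks kept (19.5%). Their scores ran from 30.33 to 84.37 at 30 min (median 37.44) and from 30.57 to 97.78 at 0 min (median 51.05), so low and high scores were both present within 1 gene. NAALADL2 encodes a protein related to the glutamate carboxypeptidases. Next came NLGN1 with 18 of 124 (14.5%; scores 31.55 to 74.46 at 30 min and 33.58 to 119.88 at 0 min) and FGF12, an intracellular fibroblast growth factor homologue that modulates sodium channels, with 11 of 72 (15.3%; 32.38 to 52.15 at 30 min and 34.15 to 88.36 at 0 min).

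A further 6 genes of the first 10 were on chromosome 3 too. SPATA16, a gene of spermatid development, kept 9 of 35 (25.7%), and MECOM kept 9 of 67 (13.4%). ZPLD1 kept 8 of 37 (21.6%), and the adhesion gene CADM2 kept 8 of 71 (11.3%). PLD1, which encodes phospholipase D, kept 7 of 23 (30.4%), and ECT2, which encodes a guanine nucleotide exchange factor of cytokinesis, kept 6 of 18 (33.3%). ARHGAP32 on chromosome 11, which encodes a GTPase-activating protein, kept 6 of 37 with scores of 38.49 to 54.16 at 30 min and 38.65 to 66.9 at 0 min. IQCJ-SCHIP1 (6 of 78) on chromosome 3 and PCDH15 (6 of 69) on chromosome 10 tied with it and ECT2 at 6 kept sites.

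The 35 promoter sites had scores between 30.08 and 64.06 at 30 min (median 38.08) and between 30.83 and 78.03 at 0 min (median 41.42). Of the 35, 12 were on chromosome 3, near the 38.6% of all kept sites that lay there. The highest at 0 min was at PDE4DIP, a centrosome and Golgi scaffold gene, with 45.73 at 30 min and 78.03 at 0 min. VPS8, which encodes a subunit of an endosomal tethering complex, had 32.06 at 30 min and 76.35 at 0 min, and PLD1 had 56.87 at 30 min and 68.86 at 0 min. The promoter site of NCOA2, a coactivator of steroid receptors, had 32.58 at 30 min and 67.53 at 0 min. MECOM had a promoter site with 45.72 at 30 min and 64.3 at 0 min, and the shared start region of DNAJB11, an endoplasmic reticulum co-chaperone, and TBCCD1 had 53.2 at 30 min and 62.54 at 0 min. FAM117A (36.2 at 30 min, 64.32 at 0 min), ZNF852 (40.19 at 30 min, 57.35 at 0 min), PDE7A (46.24 at 30 min, 51.81 at 0 min), a cyclic AMP phosphodiesterase, and AGR2 (40.32 at 30 min, 52.55 at 0 min), a protein disulphide isomerase of secretory epithelium, completed the first 10.

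Members with a kept site were counted in 8 gene lists. Beside them stand 2.48% of all coding genes with a kept site and 3.71% of all 0 min peaks kept. Of 35 known or candidate progestin-responsive genes, among them FKBP5, TSC22D3 and PER1, 10 had a 0 min LSD1 peak and 0 had a kept site, and of their 32 LSD1 peaks 0 were kept, which allows a share of up to 9.38%. Of 18 genes of the oestrogen response, NRIP1, a nuclear receptor corepressor, had a kept site (1 of the list's 14 peaks). Of 19 luminal factors and keratins, the epithelial transcription factor genes GRHL2 with 1 and TRPS1 with 2 had kept sites, 3 of the list's 53 peaks. In the LSD1, CoREST and HP1 list, GSE1, which encodes a protein found with CoREST complexes, was the 1 gene of 21, with 2 of the list's 26 peaks. In the list of remodelling subunits, SMARCE1 and ACTL6A, both subunits of the BAF complex, had 1 kept site each, 2 of the list's 25 peaks. Of 16 matched genes of ADP-ribose and NAD metabolism, 9 had LSD1 peaks and 0 of 27 peaks were kept, which allows up to 11.1%. Each of these 6 lists thus had at most 3 kept sites, and counts this small do not separate their shares of peaks from 3.71%. Their median gene lengths ran from 24.4 to 53.3 kb, against 27.3 kb for all coding genes, and length was not matched.

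The other two lists had many kept sites, and their genes are set apart by position and by length. All 25 genes picked for lying in the amplified stretch of chromosome 3q known from cancers had a 0 min peak, and 17 (68%) had a kept site, together 63 of 446 peaks. Besides MECOM, PLD1 and ECT2 these were PIK3CA, the scaffold gene DLG1 and the LIM-domain gene LPP with 5 each, TNIK, IGF2BP2 and FNDC3B with 4 each, TP63 and ZMAT3 with 3 each, TBL1XR1 and GOLIM4 with 2 each, and PRKCI, TFRC, MUC4 and ACTL6A with 1 each. Their share of 14.1% of peaks stands beside 9.05% for all peaks on that arm. The 5 Mb windows from 170000001 and 175000001, with PLD1, ECT2 and PIK3CA, kept 17.2% and 14.7%. Those from 165000001, 185000001 and 195000001, with MECOM, TP63 and DLG1, kept 8.28%, 9.01% and 9.86%. These 25 genes were chosen for their position, with earlier results of these data known. The parts of position and of the genes themselves in the 68% and the 14.1% were not tested. Of 21 long genes for neuronal adhesion proteins, of median length 1171 kb, 4 (19.0%) had a kept site, together 30 of 401 peaks: NLGN1 with 18, CADM2 with 8, NTM with 3 and LRRC4C with 1. The 26 in NLGN1 and CADM2 were on chromosome 3.

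HP1γ peaks, which the rule did not use, overlapped kept sites more often than the other LSD1 peaks. At 30 min an HP1γ peak overlapped 140 kept sites (10.8%, 9.21 to 12.6%), against 4.54% of peaks not kept and 4.77% of all 0 min LSD1 peaks. At 0 min an HP1γ peak overlapped 194 kept sites (14.9%, 13.1 to 17.0%), against 6.78% of peaks not kept and 7.08% of all. Overlap at both times was found at 42 kept sites (3.23%), against 0.721% of peaks not kept, so these sites were in all 4 lists. HP1γ was listed at 30 min only at 98 kept sites (7.54%), against 3.81% of peaks not kept. It was listed at 0 min only at 152 (11.7%), against 6.06%, so the 0 min only class was the larger in both groups. The HP1γ list itself was longer at 0 min, with 31845 peaks, than at 30 min, with 23836. The part of list length in the differences between the times was not tested. No HP1γ peak at either time was found at 1007 kept sites (77.5%), against 89.4% of peaks not kept.

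The share was higher in kept sites in each subset that was compared, at a size that varied with chromosome and width, and in the smaller subsets the interval did not always exclude the share of peaks not kept. On chromosome 3 the HP1γ share at 30 min was 18.3% of kept sites, against 9.54% of those not kept, and at 0 min it was 22.5% against 14.0%. On the other chromosomes it was 6.02% against 3.54% at 30 min and 10.2% against 5.35% at 0 min. With the LSD1 peaks in 3 classes of width, it was 15.9% against 6.97% at 30 min among the widest and 4.50% (2.65 to 7.54%, 13 of 289) against 2.92% among the narrowest, where the interval holds the share of peaks not kept. With centres required to lie within 200 bp, it was 4.08% (3.13 to 5.30%) against 2.13% at 30 min and 7.39% (6.09 to 8.94%) against 3.40% at 0 min. On chromosome 3 by that measure it was 5.78% (4.05 to 8.17%) against 4.39% at 30 min, where a difference was not detectable, and 9.36% (7.11 to 12.2%) against 7.01% at 0 min. In the regions with most 30 min LSD1 peaks it was 18.7% against 10.3% at 30 min and 21.7% against 14.8% at 0 min. What remains with width, density and chromosome matched at once was not tested.

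**Figure D5:**
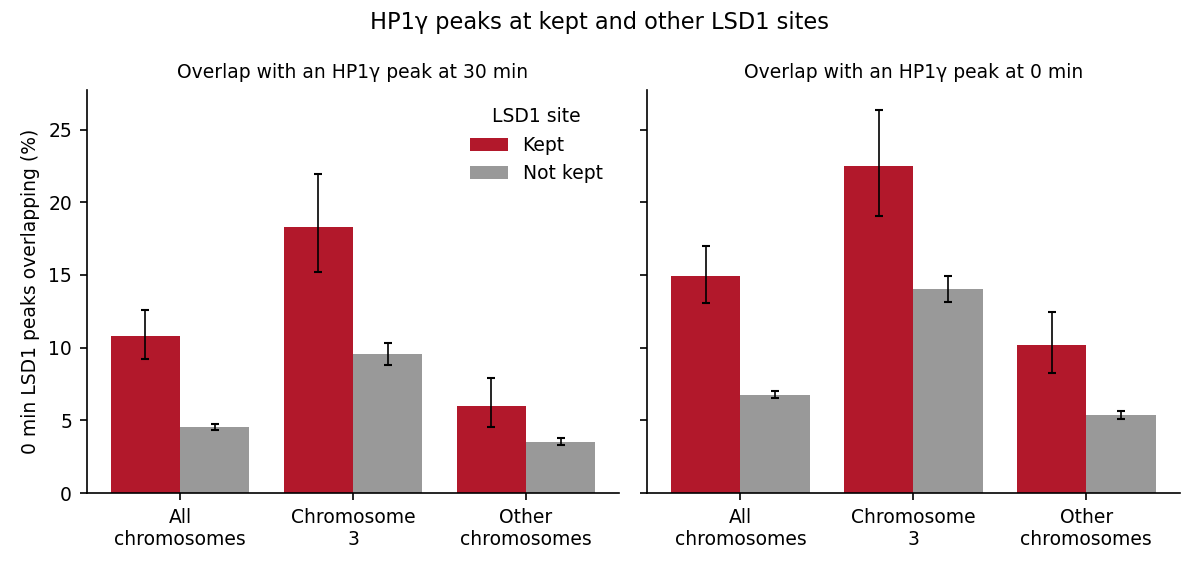
Share of 0 min LSD1 peaks that overlap an HP1γ peak at 30 min (left) and at 0 min (right), in %, for kept sites (red) and those not kept (grey), over all chromosomes, on chromosome 3 and on the others; lines are 95% Wilson intervals. Kept sites stand above the others in each pair, for example 10.8% against 4.54% over all chromosomes at 30 min.

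The sites in all 4 lists with the highest LSD1 scores at 0 min were led by the site nearest to SMCO1 and the NBPF16 site whose window is shown above. A site at chr15:20871449-20872230 scored 39.08 at 30 min and 100.61 at 0 min. Introns of NAALADL2 held 2 of them, at chr3:174924889-174926081 with 35.53 at 30 min and 97.78 at 0 min, and at chr3:174734911-174735617 with 52.4 at 30 min and 76.68 at 0 min. An exon of MYNN, a zinc-finger gene, held a site at chr3:169503976-169505082 with 31.99 at 30 min and 92.2 at 0 min. Others were 36.3 kb from DSCAM on chromosome 21 (57.04 at 30 min, 87.36 at 0 min) and at chr3:181853914-181855257, 422 kb from the pluripotency gene SOX2 (51.53 at 30 min, 82.53 at 0 min). In the central window of the DSCAM-side site 100% of the 31-base words recur in the genome. Of the 37 kept sites of NAALADL2, 12 overlapped HP1γ at 30 min and 10 at 0 min, beside 18.3% and 22.5% of all kept sites on chromosome 3.

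BPTF, a bromodomain protein and the defining subunit of NURF, a nucleosome remodeller, reads methylated lysine 4 of histone H3. The authors deposited a list of 5546 BPTF peaks displaced by hormone and one of 1848 recruited by it. A displaced BPTF peak overlapped 17 kept sites (1.31%, 0.819 to 2.09%), against 0.849% of peaks not kept and 0.866% of all. A recruited BPTF peak overlapped 5 kept sites (0.385%, 0.165 to 0.898%), against 0.175% of peaks not kept and 0.183% of all. The interval of the displaced share holds 0.866% and that of the recruited share holds 0.183%, so a difference from all LSD1 peaks was not detectable by direct overlap at these counts. That reading changed with the distance allowed. Within 1 kb, displaced BPTF was found at 51 kept sites (3.93%, 3.00 to 5.13%), against 2.10% of peaks not kept, and recruited BPTF at 13 kept sites (1.001%, 0.586 to 1.70%), against 0.442%, and neither interval holds the share of peaks not kept. These intervals treat each site as independent, though 46.8% of kept sites had another within 100 kb. The parts of local peak density and of the greater width of kept peaks were not tested. Of the 22 sites with a BPTF peak, 10 were on chromosome 3, near the 38.6% of all kept sites that lay there.

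The 5 sites with recruited BPTF were the SEC62-side site (64.07 at 30 min, 47.56 at 0 min), which also overlapped HP1γ at 0 min, one 4.33 kb from LRIG3 (61.3 at 30 min, 41.62 at 0 min), one at the start of ST6GALNAC1, a sialyltransferase gene (34.37 at 30 min, 38.6 at 0 min), one 186 kb from the growth hormone receptor gene GHR (32.52 at 30 min, 30.38 at 0 min) and one 18.4 kb from HSPB3 (32.19 at 30 min, 31.52 at 0 min). Sites with displaced BPTF included introns of LSG1, a GTPase of ribosome maturation (32.32 at 30 min, 93.16 at 0 min), FGF12 (41.51 at 30 min, 88.36 at 0 min), DNAJB11 (66.6 at 30 min, 49.6 at 0 min) and NOTCH2, 2 sites in introns of NAALADL2 (45.38 at 30 min, 51.26 at 0 min; 30.33 at 30 min, 52.36 at 0 min), and an exon of ATP13A5 (56.15 at 30 min, 59.71 at 0 min). Further introns were those of BMPR1A, a bone morphogenetic protein receptor (38.74 at 30 min, 35.47 at 0 min), and GPBP1 (33.94 at 30 min, 40.97 at 0 min). Intergenic ones lay nearest to MAP3K21, SOX5, MED13L, PEX5L, ST6GAL1, FGF12, PKHD1 and C8orf34, with scores between 31.87 and 41.23 at 30 min and between 31.75 and 51.74 at 0 min.

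Sequence that occurs in more than 1 copy was more common in kept sites than in the other 0 min peaks, on chromosomes other than 3. At least 50% of the 31-base words of the central window recurred in the genome at 125 kept sites (9.62%, 8.14 to 11.3%), against 4.92% of peaks not kept. On chromosome 3 the shares were 1.99% against 2.17%, and on the other chromosomes 14.4% against 5.46%. Over all chromosomes it was more common still in the rest of the 30 min list. There it was found at 11.4% of the 30 min peaks that matched a kept site and 19.4% of those that matched none. Chromosome 3 held 38.6% of kept sites but 3043 of the 20495 peaks at 30 min, and its part in these 2 shares was not tested. Read the other way, the kept share was 7.01% of peaks with at least 50% repeated words (125 of 1782) and 13.6% of those with all words repeated (36 of 265), against 3.51% of those with none. Chromosome 1 held 30 of the 125 sites, and 9.70% of all kept sites. Kept sites also lay within 500 kb of an assembly gap more often, at 61 of 1299 sites, against 1.84% of peaks not kept. How reads with several matches were placed is not given in the sources used here, and its part in these shares was not tested.

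Kept sites were AT-rich, as LSD1 peaks were in general. Their median GC content was 36.7%, against 37.6% for peaks not kept. The 30 min peaks that matched them had a median of 36.0%, against 38.3% for the 30 min peaks that matched none. In the central 300 bases, searched on both strands, the hexamer AGAACA was present at 353 kept sites (27.2%), against 25.9% of all 0 min peaks. The full steroid-response palindrome, that hexamer and its reverse complement set 3 bases apart, was present at 0 of 1299 kept sites, which allows up to 0.231%, and at 3 of 33691 peaks not kept. The forkhead word TGTTTAC was in 5.47% of kept sites, against 5.39% of all, and the AP-1 word TGANTCA in 12.4%, against 11.0%. The GATA word AGATAA was in 24.7% of both, the E-box CACCTG in 13.5% against 15.1% of peaks not kept and CCAAT in 39.0% against 41.9% of them. The consensus oestrogen-response palindrome was at 1 kept site and 8 of all. The CCAAT share (36.4 to 41.7%) lay just below that of peaks not kept, the other words differed by less than 2 percentage points, and matches describe letters, not binding.

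Histone H2A over gene bodies, deposited as RPKM (reads scaled to gene length and library size), was compared for the 478 genes with a kept site that passed a mean of 0.1 RPKM. On the log2 scale with 0.05 added, their median change against 0 min was 0.034 at 30 min and 0.032 at 60 min, with 274 genes higher and 204 lower at 30 min and 330 higher and 148 lower at 60 min. Genes with LSD1 peaks of which none was kept had medians of -0.033 at 30 min and 0.0068 at 60 min, and all 19709 genes had -0.14 and -0.031. The H2A change followed gene GC content, which had a median of 39.5% in genes with a kept site and 45.4% in all genes. Removing the trend on GC content also centres the changes on all genes. Centred alone, the medians of the genes with a kept site were 0.18 at 30 min and 0.063 at 60 min. With the trend removed they were -0.0044 and 0.00071. At 30 min 224 genes were then higher and 254 lower, with quartiles of -0.031 and 0.030, so the shift was no longer seen.

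A log2 change beyond 0.5 was rare. At 30 min it was met upward by 2 genes with a kept site, where 0.345% of all genes passed, and downward by 1, where 1.99% of all genes passed; at 60 min it was met upward by 1 (0.249% of all) and downward by 0 (0.639% of all). The sucrase-isomaltase gene SI had 1.08 RPKM at 0 min, 1.62 at 30 min and 1.26 at 60 min, a log2 change of 0.56 at 30 min that came to 0.23 with the GC trend removed. The gene AC090186.1 had 0.507 RPKM at 0 min, 0.754 at 30 min and 0.746 at 60 min, a log2 change of 0.53 at 30 min and 0.52 at 60 min, which came to 0.20 and 0.43 with the GC trend removed. ABHD11, an abhydrolase gene, had 12.6 RPKM at 0 min, 8.85 at 30 min and 10.1 at 60 min, a log2 change of -0.50 at 30 min that came to -0.17. With the GC trend removed, 0 of the 478 genes passed 0.5 in either direction at either time.

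Among the genes with many kept sites, several stood above the upper quartile of the 478 genes at 30 min, a log2 change of 0.18, before the GC trend was removed. NAALADL2 had 8.66 RPKM at 0 min, 10.6 at 30 min and 9.3 at 60 min, a log2 change of 0.29 at 30 min and 0.10 at 60 min. NLGN1 had 9.005 RPKM at 0 min, 10.7 at 30 min and 9.53 at 60 min, a log2 change of 0.25 at 30 min. ECT2 had 12.6 RPKM at 0 min, 16.1 at 30 min and 13.1 at 60 min, a log2 change of 0.36 at 30 min. These genes are AT-rich, and with the GC trend removed the log2 changes at 30 min were 0.023 for NAALADL2, -0.017 for NLGN1 and 0.056 for ECT2. MECOM had 15.7 RPKM at 0 min, 17.4 at 30 min and 16.6 at 60 min, a log2 change of 0.15 at 30 min and 0.0058 with the trend removed. In these 4 genes the H2A level was highest at 30 min, and with the GC trend removed their changes lay between -0.017 and 0.056. CADM2 (0.39), PCDH15 (0.33) and ARHGAP32 (0.21) also stood above that quartile, with 0.061, 0.024 and 0.018 once the trend was removed. SPATA16, ZPLD1, FGF12 and PLD1 lay below it, as did MECOM. Removing the trend also removes any other change that follows GC content, and the cause was not tested.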

How the data were processed

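Peak lists of LSD1, HP1γ and BPTF and an H2A table were analysed, 1 library per antibody and time. Reads had been aligned with Bowtie 1.0.0 to hg19 (GRCh37), per the submitters' processing notes. The LSD1 and HP1γ lists are per library, with a score per peak deposited by the authors; its lowest value is 30 in each LSD1 list, and the caller's version, any input control, the score's definition and the placement of multiply matching reads are not given in the sources used here. Per the file headers, H2A was deposited as RPKM per gene by HOMER 4.7.2 on both strands with GENCODE 18 genes.

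BED starts were raised by 1, so coordinates are 1-based. Overlap needed at least 1 bp. Shares have 95% Wilson intervals, and a count of 0 allows up to 3 counts. No test was run, since no group had more than 1 library. Genes were the protein-coding genes of GENCODE 44 lifted to GRCh37, with H2A matched by gene ID for 18978 of 20318 genes; of the 19709 genes tested, 1140 unmatched ones entered the values over all genes but no class by LSD1 sites. H2A changes are log2 of RPKM plus 0.05, for genes with a mean of at least 0.1 RPKM, and the GC trend is the median change in 40 bins of gene GC content. Sequences came from the GRCh37 reference, which does not mark repeats, so the share of 31-base words occurring more than once was computed in place of a repeat-masked share, after seeing the reference. The overlap and H2A steps were tested on simulated data. Python 3.11.15, pandas 2.3.3, numpy 2.4.6, SciPy 1.17.1, pysam 0.24.0 and numba 0.67.0 were used.

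Sites named are the 10 with the highest score at each time, those with a BPTF peak, the 10 highest in all 4 LSD1 and HP1γ lists, the 10 highest at promoters and the 5 on either side of the overlap rule. Of each of these, the text may give a selection. Genes named are the 10 with most kept sites, with those tied with the last, and list members with a kept site. Members and lists were chosen with earlier results of these data known. ADPRHL2 matched no gene in the annotation. Some sequences are not reported here.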

Additional observations from a re-analysis of the deposited data

How the results depend on the processing

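The kept share of 3.71% was 2.53% when the overlap had to cover 50% of the shorter peak and 1.67% with a reciprocal overlap of 50%. It was 1.97% with the centre of the 0 min peak inside the 30 min peak. Among peaks scoring at least 50 in both lists it was 1.26%, and without chromosome 3 it was 2.76%. The HP1γ share of kept sites at 30 min, against that of peaks not kept, was 8.24% against 3.17% with 50% of the shorter peak, 3.00% against 0.849% for HP1γ scores of at least 50, 6.25% against 3.93% in the middle and 13.9% against 6.45% in the highest of 3 LSD1 score classes, and 6.02% against 3.54% without chromosome 3. At 0 min it was 11.2% against 5.00%, 4.16% against 1.34%, 10.5% against 4.88% in the lowest and 17.9% against 9.48% in the highest class, and 10.2% against 5.35%. Alternatives chosen after seeing the data gave, at 30 min, 4.08% with centres within 200 bp, 4.50%, 5.92% and 15.9% from the narrowest to the widest of 3 classes and 18.7% in the densest regions, and at 0 min 7.39%, 8.30%, 10.1%, 20.2% and 21.7%. In each of these HP1γ comparisons the kept sites had the higher share.

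Within 1 kb, displaced BPTF was found at 3.93% and recruited BPTF at 1.00% of kept sites, against 2.10% and 0.442% of those not kept, shares that lie outside the intervals of the kept sites, unlike those by direct overlap. A promoter of 2.5 kb either side took in 5.93% of kept sites, against 5.83%. Chromosome 3 held 34.8% of kept sites with reciprocal overlap, against 17.1% of those not kept, and 68.8% at scores of at least 50, against 30.4%. The GC median was 37.0% over the central 300 bases and also without chromosome 3. The share of sites with repeated words, an added measure, was 14.4% without chromosome 3 and 12.7% with reciprocal overlap. The H2A median of genes with a kept site was 0.18 at 30 min and 0.063 at 60 min after centring on all genes. With the GC trend removed, which also centres, it was -0.0044 and 0.00071. The cause of these shifts was not tested.

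No paired analysis was possible because each antibody and time had 1 library and the labels number no replicates. A repeat-masked share was not run. The depth is unknown and the lowest score is 30, so the lists do not show signal below that score at sites called not kept.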
